A study of Mus musculus with 6 samples.

Results

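The receptors examined here were 10 receptor tyrosine kinases outside the ErbB family, namely the hepatocyte growth factor receptor Met, the Gas6 receptor Axl, the fibroblast growth factor receptors Fgfr1, Fgfr2, Fgfr3 and Fgfr4, the insulin-like growth factor and insulin receptors Igf1r and Insr, and the platelet-derived growth factor receptors Pdgfra and Pdgfrb. Every probe whose gene symbol in the platform annotation was one of these names was taken, with no use of its signal. This gave 14 probes of 25697 on the array, for 10 genes of 16593 with a named probe. Expression was measured on Illumina MouseRef-8 BeadChips in GIF-14 cells, a line of fetal gastric epithelial cells of the Runx3-/-;p53-/- genotype. Both groups therefore lacked the tumour suppressors Runx3 and p53, so neither group stood for a normal gastric epithelium, and both came from the 1 cell line. The methods describe the cells as the pre-EMT (before epithelial-mesenchymal transition) fraction of the line, grown with serum. One group of 3 arrays was untreated and the other group of 3 arrays was treated with recombinant TGF-β1 at 2.5 ng/ml for 24 h. The study asked which gene expression changes come before the transition that TGF-β1 starts in these cells.

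Receptor tyrosine kinases span the cell membrane, bind a growth factor outside the cell and phosphorylate each other on tyrosine inside it. Adaptor proteins then dock on the phosphorylated tails and pass the signal to the Ras and phosphatidylinositol 3-kinase pathways. In epithelia, Met and Fgfr2 are known as receptors for factors made by the neighbouring mesenchyme. Pdgfra and Pdgfrb are typical of fibroblasts and smooth muscle, and Axl is often expressed in cells with mesenchymal traits.

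Only 3 of the 10 receptors, Axl, Met and Igf1r, gave a signal above background, and none of the 3 passed the test for a change after TGF-β1 (adjusted p under 0.05), which 34.2% of all tested genes passed. Background was judged by the scanner software's detection p-value, and testing needed a value under 0.05 on every array of 1 or both groups. The other 7 receptors were not above background on any of the 6 arrays. Over all genes, 7725 of 16593 with a named probe were tested, which is 46.6%, against 30.0% of the receptors.

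The sequences around the annotated transcription starts of the 3 detected receptors are given because these receptors are the ones whose mRNA level could be read. They were taken from RefSeq (GRCm38.p6), run 5′ to 3′ on the strand of the gene and are 300 bases long. Capitals mark GC boxes (GGGCGG or its complement CCGCCC, the letters bound by Sp1) and AP-1 sites (TGACTCA or its complement TGAGTCA, the letters bound by Fos and Jun dimers).
Axl, chr7:25788684-25788983, minus strand:
Axl: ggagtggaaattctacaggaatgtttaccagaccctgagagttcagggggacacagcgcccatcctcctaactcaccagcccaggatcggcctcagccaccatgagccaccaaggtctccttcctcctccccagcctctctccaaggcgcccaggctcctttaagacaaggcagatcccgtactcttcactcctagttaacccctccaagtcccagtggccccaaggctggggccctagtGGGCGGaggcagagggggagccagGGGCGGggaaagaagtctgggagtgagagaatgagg
Met, chr6:17463707-17464006, plus strand:
Met: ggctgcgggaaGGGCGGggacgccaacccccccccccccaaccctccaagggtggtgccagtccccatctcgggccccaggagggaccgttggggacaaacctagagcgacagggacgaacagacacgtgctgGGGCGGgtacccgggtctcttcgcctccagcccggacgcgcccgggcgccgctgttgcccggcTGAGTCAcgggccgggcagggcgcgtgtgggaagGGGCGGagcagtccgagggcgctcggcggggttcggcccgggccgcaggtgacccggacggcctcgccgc
Igf1r, chr7:67952007-67952306, plus strand:
Igf1r: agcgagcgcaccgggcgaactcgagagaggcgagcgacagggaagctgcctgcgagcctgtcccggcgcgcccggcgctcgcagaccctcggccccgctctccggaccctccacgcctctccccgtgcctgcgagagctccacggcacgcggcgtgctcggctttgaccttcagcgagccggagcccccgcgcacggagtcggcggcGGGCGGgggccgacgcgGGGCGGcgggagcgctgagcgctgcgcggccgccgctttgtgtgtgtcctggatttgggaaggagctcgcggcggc

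The start region of Axl held 6 CpG dinucleotides, that of Met 34 and that of Igf1r 48. The median over 32851 such regions was 7, with quartiles of 3 and 20, so Met and Igf1r lay above the upper quartile and Axl did not. GC boxes numbered 2 in Axl, 3 in Met and 2 in Igf1r, and at least 1 was present in 35.7% of all regions. Met alone of the 3 held an AP-1 site, a motif present in 5.20% of all regions. The 5 letters CAGAC, or GTCTG on the other strand, which Smad proteins can bind, occurred 2 times in Axl, 1 time in Met and 1 time in Igf1r, and in 49.6% of all regions. No match overlapped a match of another motif. RefSeq entries were matched for 7 of the 10 receptors. Among the undetected receptors with an entry, Fgfr2 held 4 CpG and Pdgfra 5, while Fgfr4 held 20 and the 2 starts of Fgfr3 held 26 and 30. A high CpG count was thus found in detected and undetected receptors alike.

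**Figure D1:**
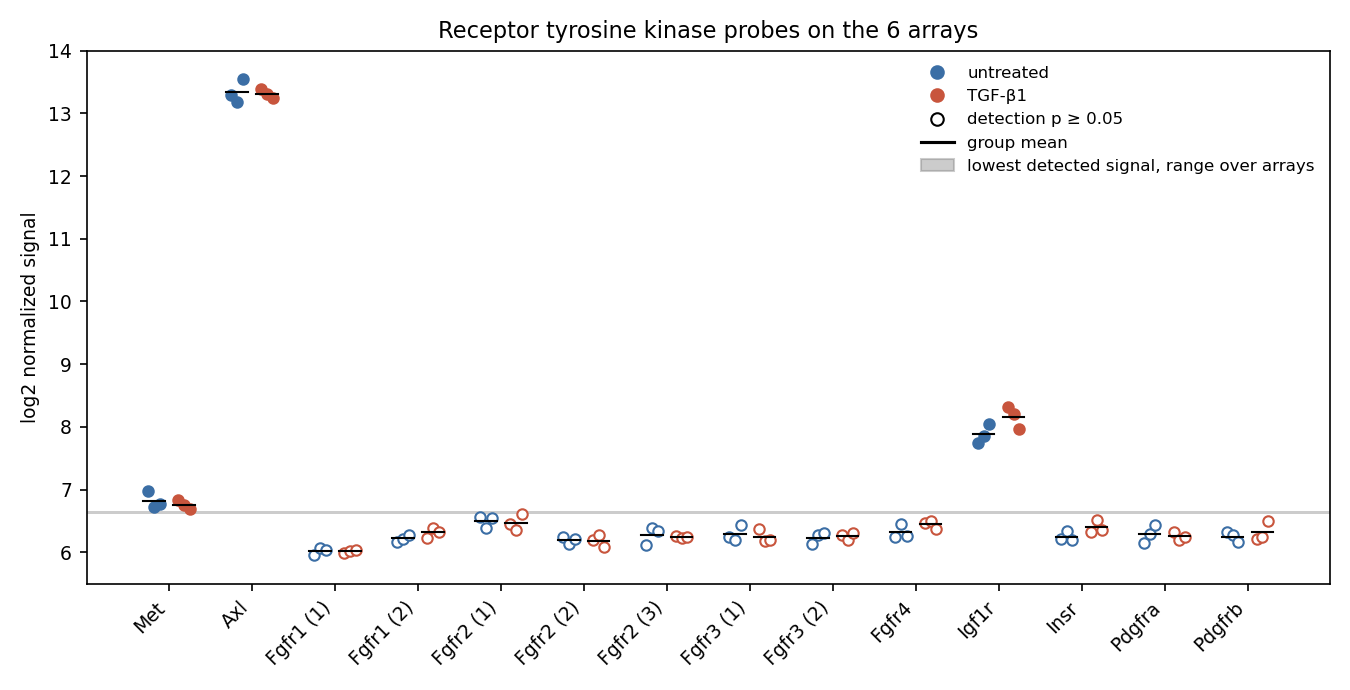
Log2 normalized signal (vertical axis) of the 14 probes of the 10 receptors on each array, with untreated arrays in blue, TGF-β1 arrays in red, open circles for detection p of 0.05 or more, bars for group means and a grey band for the lowest detected signal of the 6 arrays (6.61 to 6.66). Only the probes of Met, Axl and Igf1r lie above the band, and in each of them the untreated and TGF-β1 arrays overlap.

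Axl is a TAM family receptor that binds Gas6 and protein S. Its 1 probe, ILMN_2651715, read 13.29, 13.18 and 13.55 on untreated arrays and 13.38, 13.31 and 13.25 on TGF-β1 arrays, on the scale of log2 normalized signal used for all levels here. The groups overlapped, with the highest and the lowest of the 6 values both on untreated arrays. The means were 13.34 ± 0.19 (SD, n = 3) and 13.31 ± 0.07 (SD, n = 3). The log2 fold change, TGF-β1 over untreated, was -0.03 (SE 0.11, 95% interval -0.28 to 0.22, limma adjusted p = 0.868). Its sign turned to 0.07 without untreated replicate 3 and to 0.0054 without TGF-β1 replicate 3, so no direction can be given for Axl.

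Met is the receptor for hepatocyte growth factor, which loosens and scatters epithelial cells. Its 1 probe, ILMN_2828877, read 6.98, 6.72 and 6.78 on untreated arrays and 6.83, 6.76 and 6.68 on TGF-β1 arrays. These values lay just above the lowest detected signal, with detection p from 0.00125 to 0.0401 over the 6 arrays. The groups overlapped, and untreated replicate 1 was the highest of all. The means were 6.82 ± 0.13 (SD, n = 3) and 6.76 ± 0.07 (SD, n = 3). The log2 fold change was -0.07 (SE 0.096, 95% interval -0.29 to 0.15, limma adjusted p = 0.635). It was 0.0071 without untreated replicate 1, so Met also had no settled direction. Values so close to background understate a fold change on this scale, and with background correction (neqc) that of Met was -0.14 with an adjusted p of 0.559, among adjusted p- or q-values of 0.500 to 1 over the alternatives.

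Igf1r, the receptor for insulin-like growth factors, came nearest to a change. Its 1 probe, ILMN_1239663, read 7.74, 7.86 and 8.04 on untreated arrays and 8.31, 8.20 and 7.97 on TGF-β1 arrays. The groups overlapped in 1 place, since TGF-β1 replicate 3 lay below untreated replicate 3, and the other TGF-β1 arrays lay above all the untreated ones. The means were 7.88 ± 0.15 (SD, n = 3) and 8.16 ± 0.17 (SD, n = 3). The log2 fold change was 0.28 (SE 0.12, 95% interval 0.01 to 0.55), a ratio of 1.22. With limma, the p before adjustment was 0.0435 and the adjusted p was 0.106, so Igf1r did not pass. It passed when either overlapping array was left out, with a log2 fold change of 0.36 and an adjusted p of 0.0485 without untreated replicate 3, and 0.38 and 0.0468 without TGF-β1 replicate 3. Its adjusted p- or q-values ran from 0.0468 to 0.292 over the alternatives, and the sign was positive in all 18.

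Array brightness moved with the levels of Igf1r and Axl. The mean raw signal was 519, 518 and 435 on untreated replicates 1, 2 and 3, and 406, 439 and 519 on TGF-β1 replicates 1, 2 and 3. In each group the brightest array gave the lowest Igf1r value and the dimmest array gave the highest one. All 3 arrays with a mean raw signal of 406 to 439 also read Axl higher (13.31 to 13.55) than the 3 arrays at 518 to 519 (13.18 to 13.29). With the mean raw signal of the array as a covariate, the log2 fold change of Igf1r was 0.17 (SE 0.080, limma adjusted p = 0.0965), that of Axl -0.11 (SE 0.088, adjusted p = 0.336) and that of Met -0.08 (SE 0.095, adjusted p = 0.514). None of the 3 passed in that fit either. The covariate did not act on these receptors alone, since over all tested probes that fit called 5161, against 3611 without it. The part of brightness in the receptor values was otherwise not tested.

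**Figure D2:**
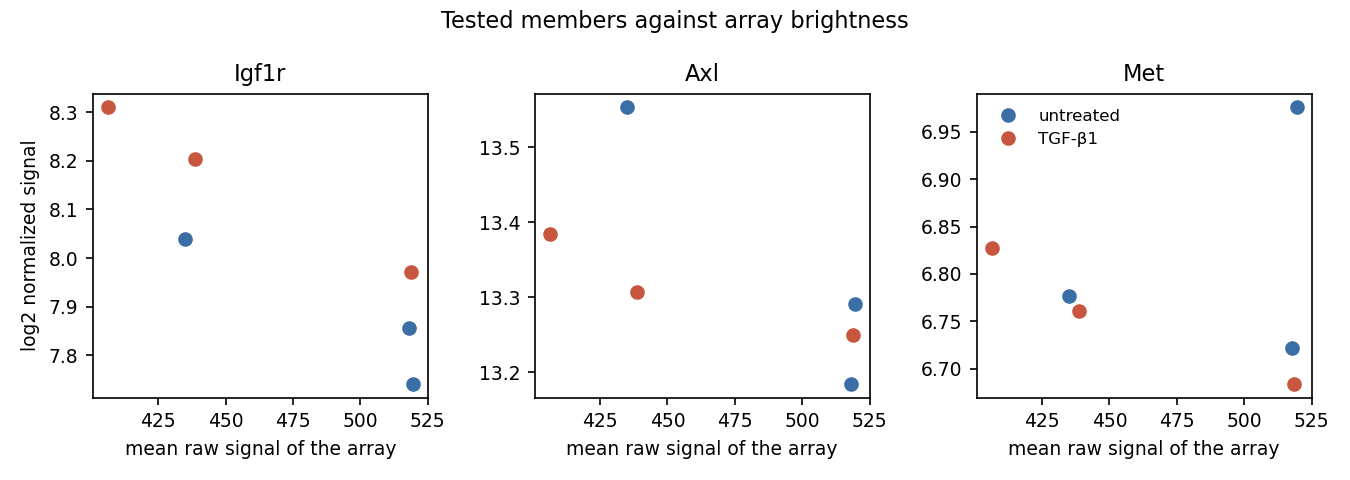
Log2 normalized signal of Igf1r, Axl and Met (vertical axes, each with its own range) against the mean raw signal of the array (horizontal axes), with 3 untreated arrays in blue and 3 TGF-β1 arrays in red. Igf1r is highest on the dimmest array, at a mean raw signal of 406, and lowest on the untreated array at 519, and Axl is higher on the 3 dim arrays (13.31 to 13.55) than on the 3 bright ones (13.18 to 13.29), while Met is highest on a bright array (6.98).

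The fibroblast growth factor receptors were read by 8 probes, 2 for Fgfr1, 3 for Fgfr2, 2 for Fgfr3 and 1 for Fgfr4, and none was above background. Fgfr2, whose epithelial splice form binds Fgf7 and Fgf10, came nearest. Its probe ILMN_1229167 read 6.56, 6.38 and 6.55 on untreated arrays and 6.45, 6.36 and 6.61 on TGF-β1 arrays, with detection p from 0.0664 to 0.291. The groups overlapped, and the other probes of Fgfr2 ranged from 6.08 to 6.39. Fgfr1, widely expressed in mesenchymal cells, ranged from 5.96 to 6.06 on one probe and from 6.17 to 6.39 on the other. The 2 probes of Fgfr3 ranged from 6.13 to 6.43. The probe of Fgfr4 read 6.25, 6.44 and 6.26 on untreated arrays and 6.47, 6.50 and 6.37 on TGF-β1 arrays. The groups of Fgfr4 overlapped at a single pair of arrays, with all 6 values below the lowest detected signal.

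The insulin receptor Insr, the closest relative of Igf1r, read 6.21, 6.34 and 6.20 on untreated arrays and 6.33, 6.52 and 6.36 on TGF-β1 arrays. The difference of group means was 0.15, the largest among the undetected probes, and the groups overlapped. Pdgfra, which binds all the common PDGF dimers, read 6.14, 6.28 and 6.44 on untreated arrays and 6.32, 6.20 and 6.25 on TGF-β1 arrays. Pdgfrb, which binds PDGF-BB and PDGF-DD, read 6.32, 6.27 and 6.16 on untreated arrays and 6.22, 6.24 and 6.49 on TGF-β1 arrays. Neither PDGF receptor was above background on any array, and the groups of both overlapped.

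Taking the 7 undetected receptors together, 0 of 66 values from 11 probes and 6 arrays reached a detection p under 0.05, and these p-values ran from 0.0664 to 0.972. The log2 signals ran from 5.96 to 6.61, each probe varied by 0.11 to 0.33 over the 6 arrays, and group means differed by -0.04 to 0.15. For these receptors the arrays give no level and no fold change, only a signal not well above background in both groups.

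Counted as genes, 0 of the 3 tested receptors were higher and 0 lower after TGF-β1, by limma at an adjusted p under 0.05. At an unadjusted p under 0.05 the count was 1, Igf1r, and by significance analysis of microarrays (SAM, the test the methods name) it was 0. Among all 7725 tested genes, each by its brightest tested probe, 34.2% were called, 16.4% higher and 17.8% lower. Among all 11189 tested probes, 32.3% were called, 16.4% higher and 15.9% lower. The groups did not overlap in 48.2% of genes and 45.9% of probes, against 0 of the 3 receptors. With only 3 tested receptors, a count of 0 against these shares is not a result about the receptors as a class. Their median log2 fold change was -0.03, and that of all tested genes was 0.03. In cell populations such as these, fewer cells expressing a gene and less RNA per cell cannot be told apart.

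The ErbB receptor Egfr gave a contrast. Its brightest probe, ILMN_2693922, read 9.24, 9.41 and 9.47 on untreated arrays and 10.81, 11.02 and 10.73 on TGF-β1 arrays. The groups lay far apart, and the log2 fold change was 1.48 (SE 0.11, limma adjusted p = 2.15e-05). All 4 probes of Egfr rose, by 0.49 to 1.48 on the log2 scale. The log2 fold change of Egfr exceeded that of Axl by 1.51, that of Met by 1.55 and that of Igf1r by 1.20. The difference from Met is not exact, since Met lay close to background, where fold changes are understated. Each of these differences had a two-sided exact permutation p of 0.1, the smallest that 3 against 3 arrays allow, and 0.1 after adjustment over 3 pairs. Erbb2, Erbb3 and Erbb4 were not analysed here.

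Of 30 further receptor tyrosine kinases outside the ErbB and Eph families, 27 had a named probe, 7 were tested, 4 were higher (57.1%, against 34.2% of all tested genes in either direction) and 0 lower, with a median log2 fold change of 0.27 over the 7. The receptors not above background on any array numbered 18. The largest call was Ret, the receptor for the GDNF family of ligands. Its probe ILMN_3043469 read 6.45, 6.35 and 6.55 on untreated arrays, not well above background on any of them, and 8.20, 8.25 and 8.06 on TGF-β1 arrays. Ret was therefore at least 2.92-fold higher after TGF-β1 (limma adjusted p = 4.44e-06). This bound sets the mean of the detected group against, for each array of the other group, the higher of the lowest detected signal and the probe's own signal. The second probe of Ret was not above background on any array. No difference from the other receptors was formed with Ret, since its untreated level is only a bound.

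The other calls in that list were small and close to the threshold. Mst1r, the closest relative of Met and the receptor for macrophage-stimulating protein, had a log2 fold change of 0.38 (SE 0.11, limma adjusted p = 0.0324). Ptk7, a pseudokinase of Wnt signaling, had 0.36 (SE 0.11, adjusted p = 0.0365), and Mertk, a TAM receptor like Axl, had 0.27 (SE 0.080, adjusted p = 0.0336). Mst1r and Mertk each passed in 11 alternatives and Ptk7 in 10. Leaving out replicate 1 or 2 of either group ended all 3 calls, with log2 fold changes of 0.27 to 0.41 for Ptk7, 0.32 to 0.37 for Mst1r and 0.24 to 0.27 for Mertk, and leaving out TGF-β1 replicate 3 ended that of Ptk7 as well (0.29). Among the receptors that did not pass, Lmtk2 had -0.29 (adjusted p = 0.0565), Ryk, a Wnt receptor, -0.24 (adjusted p = 0.0891) and the collagen receptor Ddr1 0.24 (adjusted p = 0.0524). Of 18 alternatives, Ddr1 passed in 5, Lmtk2 in 4 and Ryk in 2. The groups did not overlap in any of the 7 tested receptors of that list, against 48.2% of all tested genes without overlap. Tyro3, the third TAM receptor, was detected on 1 TGF-β1 array only and was not tested.

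**Figure D3:**
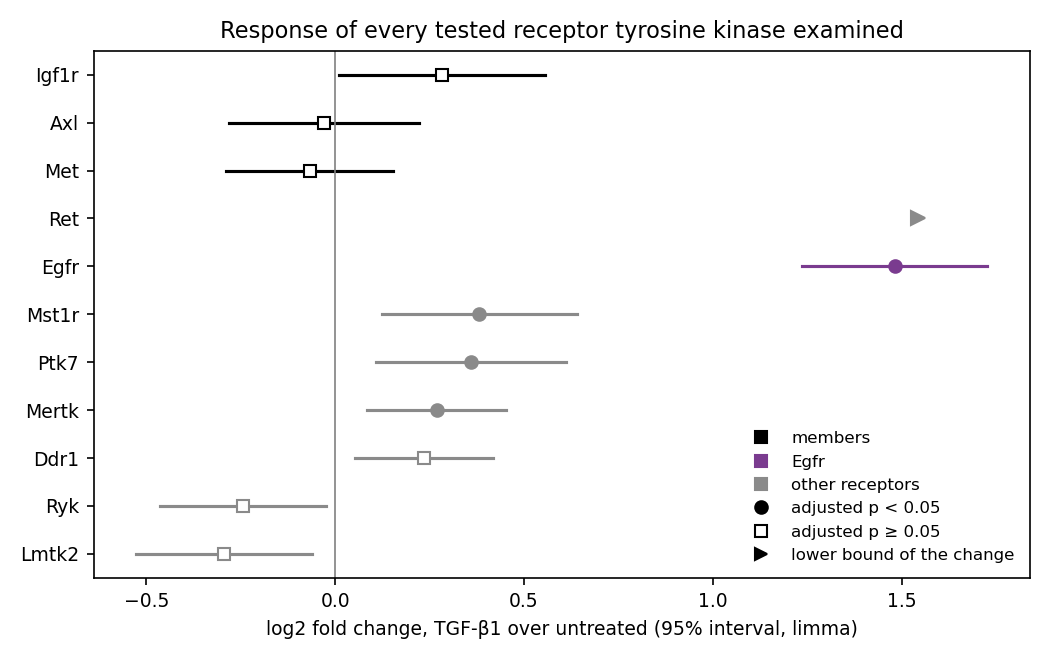
Log2 fold change, TGF-β1 over untreated, with the 95% limma interval (horizontal axis) for the 3 tested receptors (black), Egfr (purple) and the 7 other tested receptor tyrosine kinases (grey), filled circles for adjusted p under 0.05, open squares for the rest and, for Ret, a triangle at the lower bound of its change (2.92-fold). Egfr (1.48) lies above the intervals of Igf1r (0.28), Axl (-0.03) and Met (-0.07), whose upper limits are 0.55, 0.22 and 0.15. Met lay close to background, so its fold change and interval are understated.

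Of 29 ligand genes of the 10 receptors, 28 had a named probe and 9 were tested, of which 4 were higher, 2 lower and 3 did not pass, with a median log2 fold change of -0.05. The called share was 66.7% of the tested ligands and 34.2% of all tested genes, and the ligands were not tested against the receptors. The ligands not above background on any array numbered 17. They included Hgf, the ligand of Met. Igf1, a ligand of Igf1r, was detected on 1 TGF-β1 array only. The ligands of Axl were tested and did not pass. Gas6 read 7.14, 6.98 and 7.06 on untreated arrays and 7.04, 6.91 and 6.77 on TGF-β1 arrays (log2 fold change -0.15, limma adjusted p = 0.281), with overlapping groups. Pros1, which encodes protein S, had a log2 fold change of -0.21 (adjusted p = 0.147).

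Fgf1, which binds all the fibroblast growth factor receptors, fell the most of the tested ligands. Its probe ILMN_2701233 read 9.51, 9.63 and 9.71 on untreated arrays and 7.36, 7.46 and 7.31 on TGF-β1 arrays, and the groups lay far apart. The log2 fold change was -2.24 (SE 0.090, limma adjusted p = 1.01e-06). The second probe of Fgf1 was not well above background on any TGF-β1 array, and it was at least 1.65-fold lower there. That probe entered the test only through the untreated arrays, so its limma adjusted p of 0.00085 does not belong to the bound. Fgf2 went the other way. Its probe read 6.08, 6.26 and 6.30 on untreated arrays, not well above background, and 6.85, 6.93 and 6.75 on TGF-β1 arrays. This made Fgf2 at least 1.16-fold higher. Fgf2 entered the test only through the TGF-β1 arrays, so its limma adjusted p of 0.00145 does not belong to that bound.

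The PDGF genes tested were higher after TGF-β1. Pdgfa read 10.68, 10.74 and 10.30 on untreated arrays and 11.42, 11.33 and 11.58 on TGF-β1 arrays, with no overlap (log2 fold change 0.87, SE 0.13, limma adjusted p = 0.00145). Pdgfb read 10.10, 10.11 and 10.21 on untreated arrays and 10.99, 10.93 and 10.78 on TGF-β1 arrays, also with no overlap (log2 fold change 0.76, SE 0.090, adjusted p = 0.000381). A second, dimmer probe of Pdgfb did not pass (0.24, adjusted p = 0.118). Both genes encode chains of dimers that bind the 2 PDGF receptors, neither of which was above background. Pdgfc read 8.81, 8.47 and 8.34 on untreated arrays and 8.93, 9.02 and 9.18 on TGF-β1 arrays (0.50, SE 0.13, adjusted p = 0.0202), with all TGF-β1 arrays above all untreated ones. The call of Pdgfc held in 12 of 18 alternatives and was lost without untreated replicate 2 (0.47), TGF-β1 replicate 2 (0.51) or TGF-β1 replicate 3 (0.43). Igf2, named after its values were seen, was lower (-0.38, SE 0.12, adjusted p = 0.0390), but that call held in 8 of 17 alternatives and was lost when any 1 array other than TGF-β1 replicate 2 was left out (-0.42 to -0.27).

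**Figure D4:**
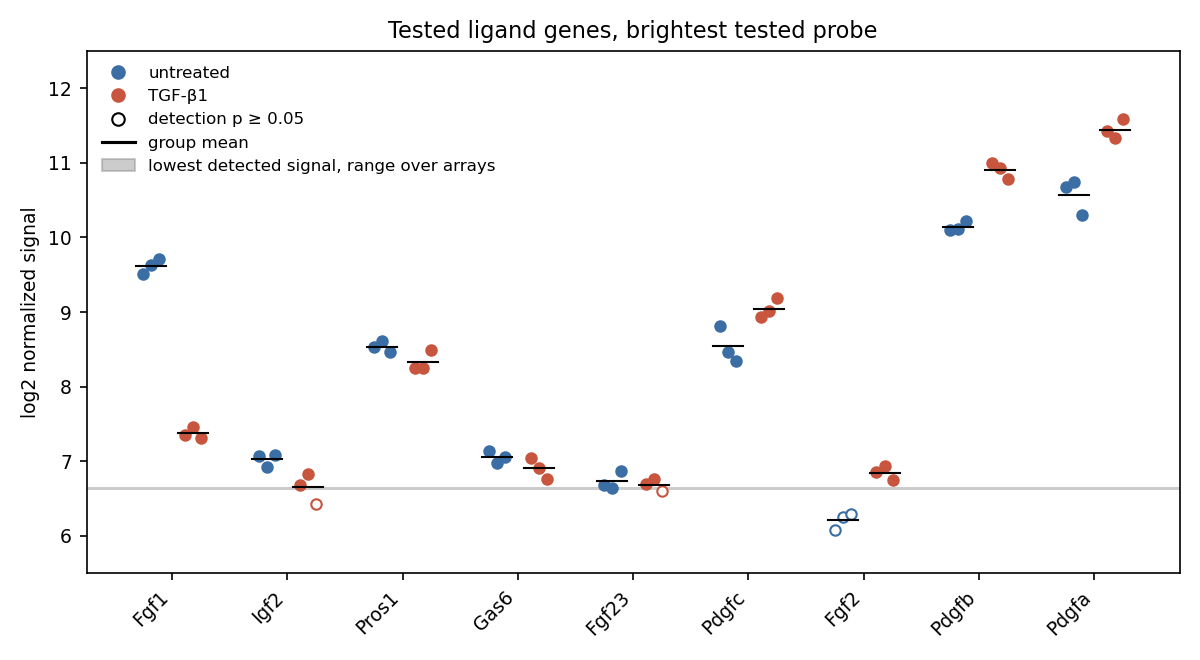
Log2 normalized signal (vertical axis) of the 9 tested ligand genes on each array, by the brightest tested probe, with untreated arrays in blue, TGF-β1 arrays in red, open circles for detection p of 0.05 or more, bars for group means and a grey band for the lowest detected signal. Fgf1 falls from 9.51 to 9.71 down to 7.31 to 7.46, and Pdgfa, Pdgfb, Pdgfc and Fgf2 lie higher on every TGF-β1 array than on any untreated one.

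Coreceptors and ligand activators, which hold or process the ligands at the cell surface, were mostly above background. Of 24 genes, 23 had a named probe and 17 were tested, with 3 higher, 5 lower and a median log2 fold change of 0.02. The called share was 47.1%, against 34.2% of all tested genes. Fgfbp1, a carrier that releases fibroblast growth factors from the matrix, ranged from 7.90 to 8.06 on untreated arrays and from 6.38 to 6.51 on TGF-β1 arrays, not well above background on the latter. It was at least 2.52-fold lower. Fgfbp1 entered the test only through the untreated arrays, so its limma adjusted p of 4.94e-06 does not belong to that bound. Igf2r, which clears Igf2 and carries lysosomal enzymes, fell by 1.36 in log2 signal on its brightest probe (SE 0.0998, adjusted p = 2.37e-05), and its second probe fell by 1.14. Gpc1, a heparan sulfate proteoglycan that binds fibroblast growth factors, rose by 1.20 (SE 0.080, adjusted p = 1.38e-05). Flrt2, a membrane protein that can bind fibroblast growth factor receptors, was above background on 1 of the 3 untreated arrays and on all TGF-β1 arrays and passed upward (adjusted p = 4.27e-05). Its measured log2 difference of 1.37 is therefore not an exact change, and it was 2.38 with neqc.

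Cd44, whose variant forms act as coreceptors of Met, rose by 0.69 on its brightest probe (SE 0.080, limma adjusted p = 0.000338), while its 5 tested probes ranged from 0.02 to 0.69. Among the coreceptors that did not pass, Fgfrl1, a receptor of the family with no kinase domain, had 0.24 (adjusted p = 0.125) and Fgfbp3 had 0.18 (adjusted p = 0.156). The rest of the calls, named after their values were seen, were Sort1 (-0.63), Flrt3 (-0.46) and the semaphorin and VEGF coreceptor Nrp1 (-0.27). The call of Nrp1 was lost when any 1 array was left out, at -0.31 to -0.24.

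Adaptors and inhibitors that work inside the cell or restrain the receptors numbered 51, of which 46 had a named probe and 33 were tested. There were 5 higher and 6 lower, with a median log2 fold change of 0.04. The called share of 33.3% was close to the 34.2% of all tested genes, so the genes that follow are described singly. Irs2, an adaptor of Igf1r and Insr, read 10.14, 9.93 and 10.40 on untreated arrays and 9.21, 9.11 and 8.91 on TGF-β1 arrays, with no overlap (log2 fold change -1.08, SE 0.13, limma adjusted p = 0.000532). Irs1, its relative, had 0.04 (adjusted p = 0.730) and overlapping groups. Pik3r1, the p85α regulatory subunit of phosphatidylinositol 3-kinase, fell by 0.94 (SE 0.082, adjusted p = 6.64e-05), and its second probe fell by 0.97. Lrig1, a membrane protein that turns down several receptor tyrosine kinases, Met and Ret among them, rose by 0.75 (SE 0.091, adjusted p = 0.000454).

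Spint1, an inhibitor of the proteases that activate hepatocyte growth factor, fell by 0.81 (SE 0.15, limma adjusted p = 0.00393). Dok4, an adaptor of Ret and the insulin receptor, fell by 0.78 (SE 0.12, adjusted p = 0.00174). Among the genes that did not pass, the adaptor Grb7 had -0.32 (adjusted p = 0.0561) and Grb10, which binds Igf1r and Insr, had 0.32 (adjusted p = 0.123). Grb7 passed in 5 of 18 alternatives, among them the fit without TGF-β1 replicate 1 (-0.42) and the fit with array brightness as a covariate (-0.36). Grb10 passed without TGF-β1 replicate 3 (0.45) and had 0.17 without TGF-β1 replicate 2. The rest of the calls were named after their values were seen. They were the catalytic subunit Pik3cb (0.74), the regulatory subunit Pik3r3 (0.49), the adaptor Nck2 (0.35) and the phosphatase Ptpn11 (0.31) in the upward direction, and the Cbl partner Sh3kbp1 (-0.70) and the phosphatase Ptprf (-0.35) in the downward direction. The calls of Nck2 and Ptpn11 were lost without untreated replicate 2 (0.31 and 0.28), TGF-β1 replicate 2 (0.37 and 0.28) or TGF-β1 replicate 3 (0.31 and 0.30). Pik3ca, the other catalytic subunit listed, had 0.20 (adjusted p = 0.193) and did not pass. Of the called subunits of this kinase, Pik3cb and Pik3r3 were higher and Pik3r1 was lower.

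**Figure D5:**
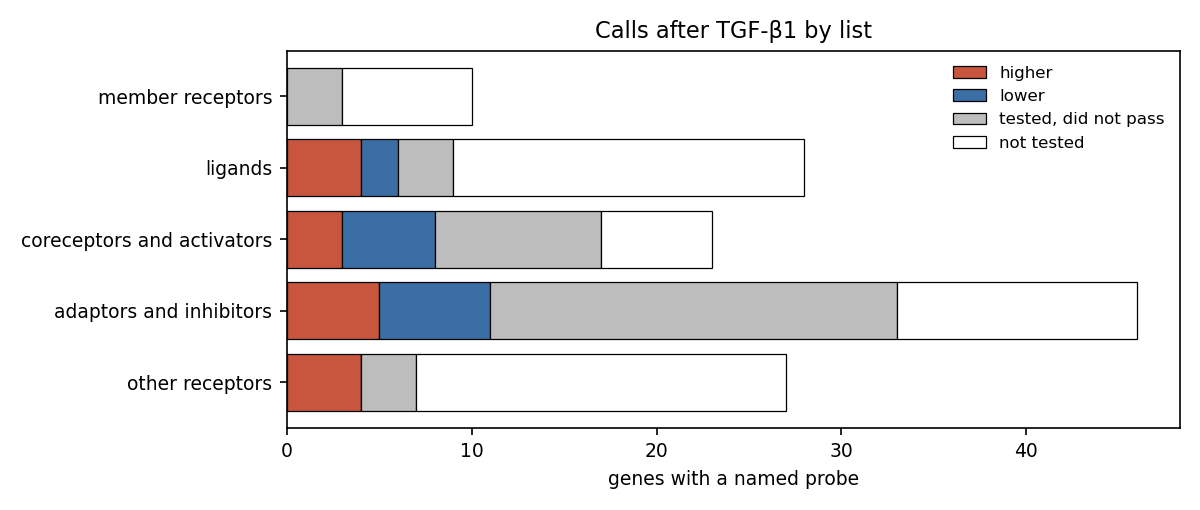
Number of genes with a named probe in each list (horizontal axis), split into genes higher after TGF-β1 (red), lower (blue), tested but not passed (grey) and not tested (white). Calls numbered 0 of 3 tested receptors, 6 of 9 ligands, 8 of 17 coreceptors and activators, 11 of 33 adaptors and inhibitors and 4 of 7 other receptors, beside 34.2% of all tested genes.

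Arrays of the same group correlated at 0.988 to 0.996 over all 25697 probes and arrays of different groups at 0.967 to 0.976, with 11381 to 11797 probes detected per array. Epithelial markers were detected in both groups, 9 or 10 of 11 on untreated arrays and 9 of 11 on TGF-β1 arrays, with summed signals of 41628 to 44959 and 44316 to 49999. The sample titles name only the line GIF-14, which the methods describe as gastric epithelial. Of 9 tested epithelial markers, 2 were higher, with Cldn4 at 2.90, and 3 were lower, with Krt19 at -1.59, on the log2 scale. Of the fibroblast and smooth muscle markers, 1 or 2 of 11 were detected on untreated arrays and 3 on TGF-β1 arrays, with summed signals of 1369 to 1467 and 1705 to 1761. Of 3 tested markers on that list, 2 were higher and 0 lower, with a median log2 fold change of 1.16. Pdgfra and Pdgfrb are themselves on that list and were at background throughout, as were Col3a1, Dcn, Lum, Thy1 and Myh11. Of 8 endothelial markers 2 or 3 were detected on untreated arrays and 1 on TGF-β1 arrays, with summed signals of 1402 to 1451 and 1405 to 1534, and Cdh5, Kdr and Vwf were at background throughout. Of 5 immune markers 0 or 1 and 0 were detected, with sums of 581 to 616 and 583 to 641, and Ptprc was at background throughout. The summed fibroblast and smooth muscle signal was higher after treatment, as were the tested PDGF ligands, while Fgf1 was lower. In that sum, 8 of the 11 markers were not above background on any array. The part of the sum in the ligand changes was not tested.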

How the data were processed

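RNA from 3 untreated and 3 TGF-β1-treated samples, biological triplicates per the methods, was hybridised to Illumina arrays. The labels do not say what was separate between replicates, so the p-values measure the spread between these samples, which may be partly technical. The authors deposited a non-normalized signal intensity and a detection p-value for each of 25697 probes and array, and a second table of their own normalized signal. The deposited signal intensity was quantile-normalized here and put on the log2 scale. Columns were matched to samples by group and number in their names. Signal intensity has no read depth, so the number of arrays limits the precision.

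The 11189 probes whose detection p-value was under 0.05 throughout 1 or both groups were tested with limma 3.58.1 in R 4.3.3, with Benjamini-Hochberg adjustment over all of them and a threshold of 0.05. Probe symbols came from the platform annotation, 1 symbol for 23978 probes and none for 1719. The brightest tested probe stood for a gene in counts, and 2048 genes had several. Named genes were all receptor probes, Egfr, and from each list up to 5 passing genes and 2 that did not pass, by size of change. Some genes were named outside that rule, among them Ddr1, Irs1, Pik3ca, Tyro3, Hgf and Igf1. As no receptor passed, no genes of like pattern were sought. The receptors and lists were chosen with earlier results of these data known. Exact permutation tests used scipy 1.17.1 in Python 3.11.15, and the fits were tested on simulated data.

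Alternatives were the authors' normalized values, neqc, scaling of arrays to a common mean, no filter, a filter of detection p under 0.01 on all 6 arrays (8961 probes), 1 probe per gene, a replicate block, an intensity trend with robust prior, SAM over 20 regroupings, the methods' t-test, leaving out each array, and, chosen after seeing the data, array brightness as a covariate. No block for the BeadChip could be fitted, as the column names do not give it.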

Additional observations from a re-analysis of the deposited data

How the results depend on the processing

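The count of receptors called was 0 in each direction under all 12 alternatives that used 6 arrays, by gene and by probe. When 1 array was left out, the count of receptors higher ran from 0 to 1 and the count of receptor probes called from 0 to 1. The 1 was Igf1r, without untreated replicate 3 or TGF-β1 replicate 3. Leaving out 1 array gave log2 fold changes from -0.11 to 0.0746 for Axl (0.0746 and 0.0054 without replicate 3 of the untreated and TGF-β1 group) and from -0.12 to 0.0071 for Met. The count of called genes in the 4 pathway lists was 29 and ran from 20 to 37. Over all probes, fits without 1 array called 2610 to 3872, against 3611 with all 6, so a call lost in such a fit can reflect lower power.

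No pairing by replicate number showed in the values. Deviations of same-numbered arrays from their group means correlated at -0.67, 0.07 and -0.78. The highest correlation, 0.78, was between untreated replicate 3 and TGF-β1 replicate 1. With 3 arrays a group, these correlations cannot tell whether same-numbered samples were prepared together. With the replicate number as a block, 0 receptors, 20 pathway genes and 2097 probes were called, against 0, 29 and 3611 without it. Under the scalings tried, the median log2 fold change of all tested probes ran from 0.03 to 0.06. For single named genes, 668 of the values under alternatives kept direction and side of the threshold, 57 lost a call, 19 gained one and 3 changed sign. The strict filter left out Met. With neqc, dim genes had larger log2 fold changes, of 0.58 for Mertk, 0.56 for Ptk7 and -0.79 for Igf2. With 3 arrays a group and 1 probe for each detected receptor, the 95% intervals reached from -0.29 to 0.55 on the log2 scale, and changes of those sizes are not excluded. For Met, whose signal lay close to background, larger changes are not excluded either.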
